A study of Homo sapiens with 4 samples.

Results

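The C/D box small nucleolar RNAs (snoRNAs) described here were the 130 gene symbols, of 26485 in the table, that begin with SNORD and a number and that lie outside a handful of better known sets. Left out were U3, U8, U13, the SNORD113 to SNORD116 repeats of the imprinted loci, and the snoRNAs of the GAS5 and SNHG1 host genes. SNORD32A, SNORD33, SNORD34, SNORD35A, SNORD35B and SNORD68 were also left out by name. The rule used names and no measured value, although the set itself was proposed with earlier results of these data known. They were measured by small RNA sequencing in HCT116 Drosha k.o. cells, a human colorectal carcinoma line from which 1 clone with both copies of the microRNA-processing nuclease gene DROSHA inactivated had been made by genome editing. Both groups carried this knockout. The vector group had been infected with the empty lentivirus pLenti-GIII-CMV-RFP-2A-Puro, which also expresses a red fluorescent protein and puromycin resistance. The CD95L group had received the same virus with the mRNA of CD95L (gene FASLG), per the methods a mutant that cannot bind CD95 and has a stop codon right after the start codon. All cells were selected with 3 µg/mL puromycin and RNA was taken at 50 h, which the treatment notes count from plating and another label from selection. There were 2 libraries per group, called vector 1, vector 2, CD95L 1 and CD95L 2 here. The methods speak of duplicates without naming the step at which they parted, so every p-value reflects only how far these libraries spread, part of which may be technical. The titles of both vector libraries carry the mark (# 2), which is not explained, so that group and any such batch cannot be told apart.

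C/D box snoRNAs are short nucleolar RNAs that are cut out of introns of host genes and protected by 4 proteins, FBL, NOP56, NOP58 and SNU13. FBL is the methyltransferase. Just before box D, or before a second copy called box D′, a stretch of the snoRNA pairs with ribosomal RNA or with the spliceosomal U6 RNA, and the base of the target that lies opposite the fifth base before the box receives a methyl group on its ribose. Ribosomal proteins and translation factors host many of these snoRNAs, so that they are made along with the protein synthesis machinery, and they are among the most abundant RNAs of their length in a growing cell. In a small RNA library they are read as fragments or whole, depending on their length.

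Of the 130 members 129 were placed on hg38, 124 of them through GENCODE 44 and 5 through RefSeq, and SNORD85 was not placed. A box C core (GATGA within the first 20 bases, sense strand) was found in 95, a box D (CTGA within the last 20 bases, sense strand) in 123, and both in 92, which is 71.3%. Both were found in 84.7% of the 118 SNORD113 to SNORD116 copies and in 0 of 101 SNORA genes, which belong to the other snoRNA class, H/ACA. The longest perfect Watson-Crick match to 18S, 28S, 5.8S or U6 RNA that ended within 2 bases of any CTGA was then searched for. A match of at least 10 bases was found in 86 members (66.7%), in 0 of the SNORD113 to SNORD116 copies and in 2.97% of the SNORA genes. Of the 86 matches, 38 were to 18S, 43 to 28S, 1 to 5.8S and 4 to U6. Among the 76 with a match and a textbook target, 75 matched that target RNA. Of the 14 members with no assigned target, 2 had a match, SNORD83A and SNORD83B, both to 18S. A match is a description of letters, and a member without one, such as SNORD43 or SNORD12, may pair with mismatches that the search did not allow. Positions are counted from 1 at the 5′ end of RNA18SN1 for 18S and of RNA28SN1 for 28S on hg38.

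The 4 most abundant members, SNORD104, SNORD50A, SNORD48 and SNORD93, are shown first, because they carried a large part of the members' reads, with SNORD50B, which holds nearly the same match as its copy SNORD50A and differed from it in level and in spread. Sequences are from hg38, 5′ to 3′ on the strand of the gene, and capitals mark the match. The match of SNORD104 was opposite position 1340 of 28S, that of SNORD48 opposite 2292 of 28S, that of SNORD93 opposite 576 of 18S, and those of SNORD50A and SNORD50B opposite 2876 of 28S.
SNORD104 (chr17:64146083-64146152, + strand): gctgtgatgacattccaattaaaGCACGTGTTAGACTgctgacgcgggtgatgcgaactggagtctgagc
SNORD48 (chr6:31835263-31835326, + strand): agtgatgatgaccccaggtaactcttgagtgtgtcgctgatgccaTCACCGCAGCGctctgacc
SNORD93 (chr7:22856613-22856686, + strand): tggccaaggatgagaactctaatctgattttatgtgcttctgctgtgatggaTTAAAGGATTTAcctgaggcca
SNORD50A (chr6:85677294-85677368, - strand): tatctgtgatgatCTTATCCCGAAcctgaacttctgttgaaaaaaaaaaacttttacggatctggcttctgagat
SNORD50B (chr6:85677589-85677658, - strand): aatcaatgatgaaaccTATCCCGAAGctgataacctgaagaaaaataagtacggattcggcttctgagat

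The 5 SNORD14 copies are shown because SNORD14D behaved unlike any other member. Capitals mark the match to 18S around position 462 in SNORD14A, SNORD14B, SNORD14C and SNORD14E, where it stops right before the CTGA of box D. SNORD14D held the same 14 letters as SNORD14C, marked here too, but no CTGA in its last 20 bases.
SNORD14A (chr11:17074654-17074744, - strand): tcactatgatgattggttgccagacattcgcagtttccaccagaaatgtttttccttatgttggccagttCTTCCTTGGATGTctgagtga
SNORD14B (chr11:17075779-17075868, - strand): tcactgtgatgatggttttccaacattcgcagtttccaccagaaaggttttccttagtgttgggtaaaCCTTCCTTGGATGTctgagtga
SNORD14C (chr11:123059335-123059422, - strand): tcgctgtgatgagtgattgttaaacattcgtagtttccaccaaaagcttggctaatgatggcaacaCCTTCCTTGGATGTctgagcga
SNORD14E (chr11:123058077-123058161, - strand): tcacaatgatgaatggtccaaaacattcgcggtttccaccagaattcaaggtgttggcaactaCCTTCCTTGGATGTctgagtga
SNORD14D (chr11:123058909-123058995, - strand): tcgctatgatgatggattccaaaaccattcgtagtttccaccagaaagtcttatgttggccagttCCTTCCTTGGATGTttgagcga

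The next set is shown because copies differed in the match that the search kept or in how they were measured. In SNORD45A and SNORD45C the longest match was 16 bases of 18S opposite position 159. In SNORD45B, the lowest of the 3, it was 12 other bases opposite position 172. Only the longest match was kept, and most of that SNORD45B stretch also stands before a CTGA in SNORD45A and SNORD45C, unmarked here. SNORD88C matched 28S opposite position 3698. SNORD88A, identical to it at 87.9% of aligned positions, held the same letters, unmarked here, but no CTGA within 2 bases after them, so the search found no match. SNORD67, which had the largest difference between the groups, matched U6 opposite position 60.
SNORD45A (chr1:75787889-75787972, + strand): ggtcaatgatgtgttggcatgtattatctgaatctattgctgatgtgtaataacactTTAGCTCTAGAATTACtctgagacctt
SNORD45C (chr1:75787072-75787150, + strand): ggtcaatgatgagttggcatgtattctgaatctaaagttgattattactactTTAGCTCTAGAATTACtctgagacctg
SNORD45B (chr1:75789477-75789548, + strand): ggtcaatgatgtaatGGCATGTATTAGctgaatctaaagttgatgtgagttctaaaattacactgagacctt
SNORD88C (chr19:50802328-50802418, - strand): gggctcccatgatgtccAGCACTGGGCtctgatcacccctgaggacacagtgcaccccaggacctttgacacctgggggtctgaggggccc
SNORD88A (chr19:50799442-50799532, - strand): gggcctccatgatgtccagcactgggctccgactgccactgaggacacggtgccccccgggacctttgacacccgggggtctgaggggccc
SNORD67 (chr11:46762389-46762499, - strand): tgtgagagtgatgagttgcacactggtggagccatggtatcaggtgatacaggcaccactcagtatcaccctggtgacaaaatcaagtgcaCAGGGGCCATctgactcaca

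The libraries held 22488145 to 25163566 gene reads. A count of 0 allowed 0.119 to 0.133 CPM (3 counts per library). CPM is reads per 1000000 gene reads. FASLG, the transgene, was at 1.16 CPM in vector 1, 2.94 in vector 2, 94.9 in CD95L 1 and 90.5 in CD95L 2, as labelled. DROSHA fragments were at 10.1 to 13.6 CPM in every library, and a fragment count over the whole gene does not check the edit. The Drosha-dependent microRNAs summed to 991, 246, 106 and 105 CPM in vector 1, vector 2, CD95L 1 and CD95L 2. The SNORD113 to SNORD116 repeats summed to 0.0356%, 0.00466%, 0.00217% and 0.00193% of reads in the same order. Vector 1 was far above the other libraries in both sums, and vector 2 also lay above both CD95L libraries. The highest of the 12 colon epithelial markers were KRT8 at 45.0 to 58.1 CPM and KRT18 at 52.8 to 61.5 CPM. All 12 were above 0 in at least 1 library. Others were lower, with MUC2 at 9.18 to 17.4 CPM, EPCAM at 2.33 to 3.26 CPM and KRT20 at 0.0437 to 0.441 CPM. The endothelial gene VWF was at 39.96 to 61.3 CPM and the leukocyte gene CD3E at 2.84 to 6.36 CPM. By level alone these fragments did not tell colon epithelium from other cell types. The summed fibroblast list was 21.9 to 29.9 CPM in the vector and 35.5 to 38.8 CPM in the CD95L libraries (COL1A2 4.58, 4.97, 11.1 and 11.9 CPM), the leukocyte list 9.58 to 12.1 and 11.6 to 18.6 CPM and the endothelial list 52.9 to 59.4 and 44.6 to 67.1 CPM, with no member of these 3 lists at 0 in all libraries. Their part in the results was not tested.

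The members took 22.6%, 26.1%, 28.9% and 25.9% of all gene reads in vector 1, vector 2, CD95L 1 and CD95L 2. The 95% Wilson interval of each share reached at most 0.0186 percentage points to either side, which covers counting error only, as PCR copies were not separable from molecules. The reads were concentrated in a few snoRNAs. SNORD104 alone held 16.7% of the members' reads and the top 6 held 50.5%. At the other end, 40 members had a mean of at least 1000 CPM, 53 a mean between 100 and 1000 CPM, 19 between 1 and 100 CPM, 4 were below 1 CPM and 14 were listed at 0 in all 4 libraries. Members just inside the filter that the test used (a mean of at least 1 CPM) were SNORD23 at 3.16 CPM and SNORD9 at 6.26 CPM. Just outside it were SNORD112 at 0.300 CPM and SNORD96B at 0.201 CPM.

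**Figure D1:**
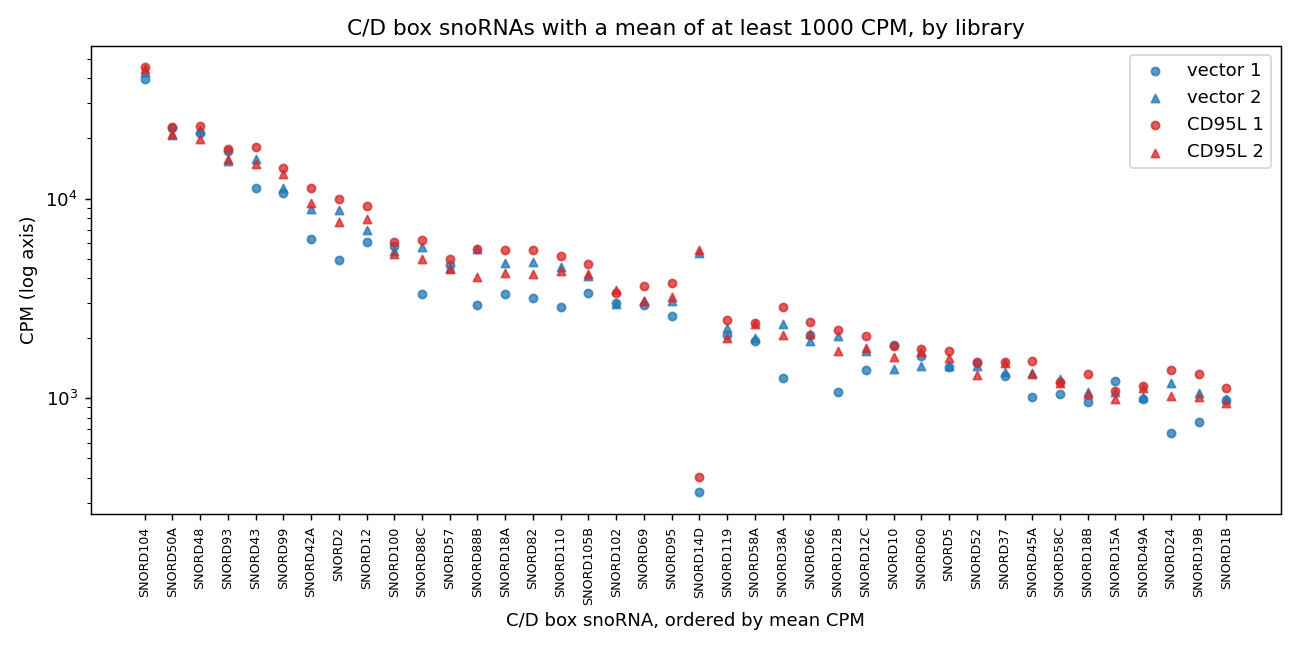
CPM (log axis) of the 40 C/D box snoRNAs with a mean of at least 1000 CPM, ordered by mean, with 1 point per library (blue vector, red CD95L, circle replicate 1, triangle replicate 2). SNORD104 lies between 39720 and 45486 CPM in all libraries, vector 1 is the lowest point for members such as SNORD2 and SNORD88C, and SNORD14D splits by replicate number.

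SNORD104, a guide for 28S in the noncoding host SNHG25, had 39720 CPM in vector 1, 43259 in vector 2, 45486 in CD95L 1 and 44410 in CD95L 2. The CD95L libraries were both above the vector libraries, by less than the SE of the difference (0.12 ± 0.24 on the log2(CPM + 1) scale). SNORD50A, a 28S guide in SNHG5, had 22453, 20702, 22949 and 20964 CPM in the same order of libraries. SNORD48, the 28S guide of SNHG32 that is widely used as a reference RNA in microRNA assays, had 21413, 22140, 23212 and 19779 CPM. Its groups overlapped. Per 100 bases of gene length the order was SNORD104 (61741 CPM), SNORD48 (33806), SNORD50A (29022), SNORD43 (23541) and SNORD93 (22335), and in this order the libraries of SNORD43 overlapped those of both its neighbours, whereas the libraries of SNORD104, SNORD48 and SNORD50A did not overlap each other. SNORD93, an 18S guide in SNHG26, was at 17380, 15379, 17646 and 15708 CPM, with replicate 1 above replicate 2 in each group.

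SNORD43, an 18S guide in the ribosomal protein gene RPL3, varied more, with 11335, 15838, 18197 and 14896 CPM. SNORD99, a 28S guide in SNHG12, had 10646 and 11341 CPM in the vector libraries and 14152 and 13318 CPM in the CD95L libraries, without overlap. SNORD42A, an 18S guide in RPL23A, had 6275, 8865, 11311 and 9543 CPM, also without overlap. Vector 1 was far below the other libraries for SNORD2, a 28S guide in the translation factor gene EIF4A2, at 4942 CPM against 8814, 9907 and 7616 CPM. SNORD12, a 28S guide in the noncoding host ZFAS1, was measured at 6031, 6934, 9155 and 7947 CPM. The other 3 of the top 12 were SNORD100 (5783, 5485, 6034 and 5289 CPM, 18S, host RPS12), SNORD88C (3339, 5729, 6205 and 4996 CPM, 28S, host C19orf48P) and SNORD57 (4638, 4496, 4968 and 4440 CPM, 18S, host NOP56, which encodes a protein of the same particle). Of these, SNORD100 and SNORD57 varied little between libraries and SNORD88C was again low in vector 1.

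By textbook target, 39 members guide 18S, 55 guide 28S, 3 guide 5.8S and 6 guide U6, 14 have no assigned target and 13 were left unclassified. The 28S guides held 15.1% and 17.1% of all reads in the vector libraries and 19.0% and 16.9% in the CD95L libraries. For the 18S guides the shares were 6.65%, 8.15%, 8.91% and 8.13%, and for the 5.8S guides 0.125%, 0.141%, 0.168% and 0.161%, where the CD95L libraries lay above the vector libraries. The U6 guides took 0.206%, 0.165%, 0.215% and 0.189%, and those with no assigned target 0.230%, 0.302%, 0.370% and 0.306%. Among U6 guides the range was wide, from SNORD10 (1179 CPM per 100 bases, host EIF4A1) to SNORD9 (6.02 CPM per 100 bases, host CHD8).

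GENCODE 44 placed the members in 71 host genes. Protein-coding genes hosted 99 members, noncoding RNA genes 26 and a transcribed pseudogene the 3 SNORD88 copies. Ribosomal protein genes (14) hosted 33 members and SNHG genes (12) hosted 22. Of the members 57 lay in an intron and touched no annotated exon of the host, 58 inside an exon of at least 1 transcript, 13 overlapped such an exon, and SNORD32B had no host. By the usual counting rules reads in overlapping genes or with several places to map are dropped, so levels of such members and of near-identical copies are uncertain.

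Members of 1 host gene, which leave 1 primary transcript, differed widely in level. Over 13 hosts with at least 3 tested members, the highest member exceeded the lowest by 2.09-fold to 227-fold per 100 bases, with a median of 21.4-fold. The widest range was in GNL3, the gene of a nucleolar GTP-binding protein, where SNORD69 reached 4134 CPM per 100 bases and SNORD19 18.2. RABGGTB followed at 70.5-fold, between SNORD45A (1549 CPM per 100 bases) and SNORD45B (22.0), and the ribosomal protein gene RPL4 at 56.4-fold, between SNORD18A (6196) and SNORD16 (110 CPM per 100 bases). In RPL3 SNORD43 exceeded SNORD83A by 42.0-fold per 100 bases, and in RPL23A SNORD42A exceeded SNORD4B by 37.6-fold. The narrowest ranges were in NOP58 (2.09-fold, SNORD70 over SNORD11) and SNHG16 (2.24-fold, SNORD1B over SNORD1A). Among the tested members the ratio of the CD95L mean to the vector mean ran from 0.787 to 1.57, a narrower range than that within any of these hosts.

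**Figure D2:**
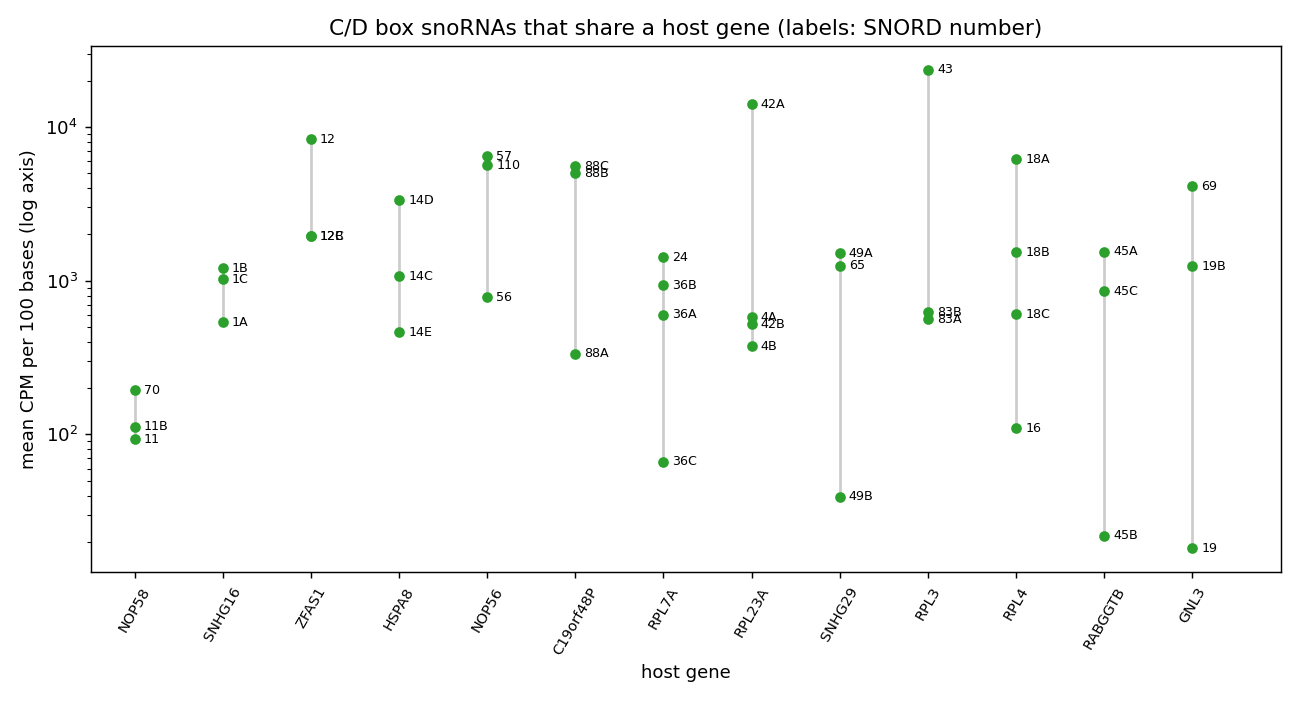
Mean CPM per 100 bases of gene length over the 4 libraries (log axis) for the snoRNAs of 13 host genes with at least 3 tested members, 1 point per snoRNA, hosts ordered by the fold between highest and lowest. NOP58 spans 2.09-fold and GNL3 227-fold.

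Copies that carry the same number also differed in level. Over the 22 numbers with at least 2 tested copies, the highest copy exceeded the lowest by 1.12-fold to 98.6-fold per 100 bases, with a median of 10.4-fold, and for 5 of them the range was narrower than in any of the 13 hosts. The widest was that of SNORD14 (SNORD14D over SNORD14A), where SNORD14D differed strongly between replicates, followed by SNORD45 at 70.5-fold, SNORD19 at 68.2-fold and SNORD49 at 38.3-fold. SNORD50A exceeded SNORD50B by 21.2-fold per 100 bases, although both lie in SNHG5 and match 28S opposite the same position. SNORD42A exceeded SNORD42B by 27.0-fold, SNORD105B exceeded SNORD105 by 20.2-fold and SNORD88C exceeded SNORD88A by 16.6-fold per 100 bases. By contrast, SNORD83B and SNORD83A were 1.12-fold apart and SNORD11B and SNORD11 1.20-fold apart. Identity of the aligned sequences was 71.1% for the SNORD50 pair, 64.2% for the SNORD42 pair and 78.9% for the SNORD83 pair.

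The 14 members at 0 in all libraries included SNORD64, SNORD107, SNORD108, SNORD109A and SNORD109B, which lie in SNHG14 in the imprinted region of chromosome 15 that is expressed in brain. The others were SNORD32B, SNORD58B, SNORD62A, SNORD62B, SNORD73A, SNORD86, SNORD103A, SNORD103B and SNORD125. Of the 14, 6 belong to pairs with identical sequence (SNORD62A and SNORD62B, SNORD103A and SNORD103B, SNORD109A and SNORD109B), for which the usual counting keeps no read at any level, and 7 lie inside an exon of a host transcript, as did 51 of the 112 tested members. The sixth imprinted member, SNORD112 of chromosome 14, had 24, 6, 0 and 0 reads in vector 1, vector 2, CD95L 1 and CD95L 2. Pooled over each group it was at least 9.06-fold lower in the CD95L libraries (floor of 3 counts over the group), with most reads in vector 1, the library that also held most Drosha-dependent microRNA and SNORD113 to SNORD116 reads. SNORD123 had 10, 2, 0 and 0 reads, at least 3.63-fold lower on the same floor, SNORD56B had 0, 6, 0 and 0 reads and SNORD96B 1, 6, 12 and 0 reads.

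Between CD95L and vector cells no member changed past the threshold. Of the 112 tested, 0 were called by limma (adjusted p below 0.05), beside 0.00620% of the 16127 genes tested, and only SNORD67 had an unadjusted p under 0.05 with a higher level in CD95L cells, beside 2.85% of all genes tested. edgeR on recovered reads called 0 members, beside 0.366% of 19686 genes, with 2 higher and 0 lower at an unadjusted p under 0.05, beside 3.20% and 2.93% of all genes. DESeq2 called 0 of 116 members, beside 0.188% of 24532 genes, with 5 higher and 1 lower at an unadjusted p under 0.05, beside 1.63% and 2.02% of all genes. The direction was nonetheless shared. The difference was positive for 100 members (89.3%) and negative for 12, with a median of 0.25 on the log2(CPM + 1) scale, while over all genes tested 49.2% were positive and the median was -0.01. The median SE of a member was 0.25, as large as the median difference. The lower CD95L library exceeded the higher vector library for 50 members (44.6%), against 16.0% of all genes tested, and the reverse held for 2 members, against 19.0%.

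These counts rested largely on 2 libraries. CD95L 1 was the highest library for 95 of the 112 members and vector 1 the lowest for 73. Over all 16127 genes tested, 2587 were highest in CD95L 1 and 3105 lowest in vector 1. Members of 1 library are not independent of each other. In limma the median difference was 0.15 without CD95L 1 and 0.12 without vector 1, beside medians over all genes of 0.06 and 0.03. In edgeR it was 0.03 without CD95L 1, where 67 of 113 members were positive, and 0.09 without vector 1, where 86 of 113 were positive, beside medians over all genes of -0.01 and 0.03. The shared direction was thus nearly lost in edgeR without CD95L 1. Without CD95L 2 or vector 2 the median was 0.31 in each case in limma, and 0.39 and 0.37 in edgeR. The share of reads taken by the members was 24.3% ± 2.48 (SD, n = 2) in the vector and 27.4% ± 2.12 (SD, n = 2) in the CD95L group, with overlap (exact permutation test, two-sided, p = 0.667, smallest possible 0.333). RNY4, the most abundant single RNA, took 18.2% and 15.5% of reads in the vector and 14.0% and 12.8% in the CD95L libraries. With RNY4 left out of the total, 92 members were positive and the median was 0.20, beside -0.06 over all genes.

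**Figure D3:**
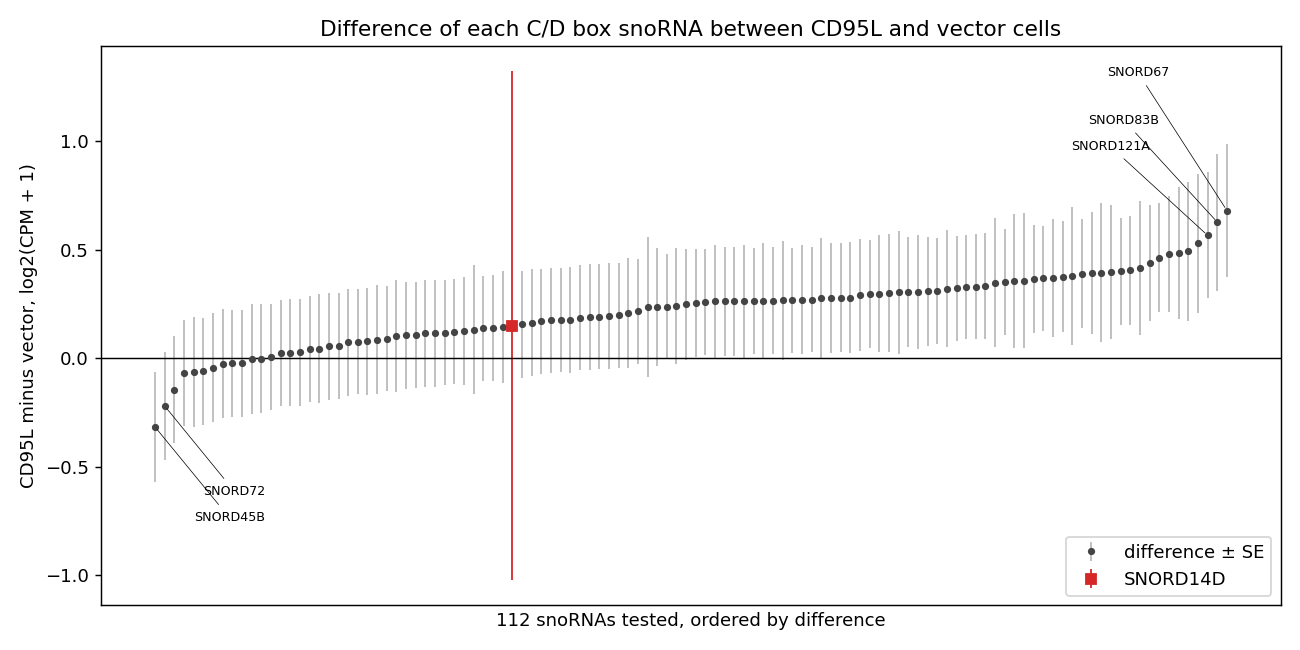
Difference between CD95L and vector cells on the log2(CPM + 1) scale for each of the 112 tested C/D box snoRNAs, ordered by size, with bars of 1 SE from limma. Most points lie above 0, many by less and many by more than 1 SE. They run from -0.32 for SNORD45B to 0.68 for SNORD67, and SNORD14D (red) has by far the longest bar, 1.17.

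The members with the smallest unadjusted p among those higher in CD95L cells were mostly of low or middle level. SNORD67, the U6 guide shown above, had 44.4 and 77.9 CPM in the vector libraries and 110 and 82.1 CPM in the CD95L libraries. All CD95L values were above all vector values, vector 2 and CD95L 2 being close, and the difference was 0.68 ± 0.31 (unadjusted p = 0.0468, adjusted p = 0.923 in limma). SNORD83B, which has no assigned target, had 329, 602, 805 and 589 CPM, with overlap (0.63 ± 0.32, adjusted p = 0.923 in limma). SNORD121A, a 28S guide in UBAP2, had 30.7, 46.0, 67.3 and 46.7 CPM, with vector 2 and CD95L 2 nearly level (0.57 ± 0.29). SNORD89, with no assigned target, had 44.6, 53.7, 73.5 and 62.6 CPM and no overlap (0.46 ± 0.25). SNORD65, an 18S guide, had 538, 979, 1260 and 870 CPM and overlapped (0.53 ± 0.32), as did SNORD18C, a 28S guide in RPL4, at 259, 445, 557 and 406 CPM (0.48 ± 0.31). SNORD84, with no assigned target, was at 199, 271, 350 and 283 CPM (0.44 ± 0.27) and SNORD9, a U6 guide, at 4.74, 5.76, 7.86 and 6.67 CPM (0.40 ± 0.25), both without overlap. In SNORD42A and SNORD12, the 2 abundant members of this set, the differences were 0.48 ± 0.27 and 0.40 ± 0.25. Adjusted p was 0.923 in limma for all 10.

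Of the 12 members with a negative difference, SNORD45B and SNORD72 were the 2 whose CD95L libraries both lay below the vector libraries. SNORD45B, the 18S guide whose longest match is shown above, had 19.9 and 15.5 CPM in the vector and 13.0 and 14.9 CPM in the CD95L libraries (-0.32 ± 0.25, adjusted p = 0.932 in limma). Its host companions went the other way in sign, with 0.29 ± 0.26 for SNORD45A and 0.19 ± 0.24 for SNORD45C. SNORD72, a 28S guide in RPL37, had 421, 401, 392 and 317 CPM (-0.22 ± 0.25). SNORD15A, a 28S guide in RPS3, had 1223, 1078, 1084 and 995 CPM (-0.15 ± 0.25) against 0.25 ± 0.25 for SNORD15B in the same host. The remaining 7 of the 10 with the smallest p (SNORD88A, SNORD36B, SNORD52, SNORD70, SNORD17, SNORD98 and SNORD48) had differences of -0.07 to -0.02.

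By target the groups did not stand apart. Positive differences were counted for 30 of 34 tested 18S guides (median 0.24), 48 of 54 28S guides (median 0.24), 2 of 2 5.8S guides, 6 of 6 U6 guides (median 0.25) and 7 of 7 members with no assigned target (median 0.33), and 0 were called in each. Spearman's rho across the 110 placed and tested members other than SNORD14D was 0.00 between gene length and the difference, 0.12 between GC content and the difference and -0.02 between mean CPM and the difference. These points share their libraries, so the values are a description. Lengths ran from 64 to 237 bases (median 78.5) and GC content from 31.0% to 70.3% (median 43.1%).

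Compared with other snoRNAs of the same libraries, the pattern was not particular to the 130. Of the 18 C/D box snoRNAs of GAS5 and SNHG1, 15 had a positive difference (median 0.19) and 16 were highest in CD95L 1. Among 85 tested H/ACA snoRNAs 62 were positive (median 0.13) and 56 were highest in CD95L 1. The members made up 58.0%, 59.6%, 59.0% and 59.6% of all C/D box reads in vector 1, vector 2, CD95L 1 and CD95L 2, a difference of 0.452 percentage points between group means (exact permutation test, two-sided, p = 1 with n = 2 per group). Their summed reads were 2.51, 2.83, 2.69 and 2.83 times those of the GAS5 snoRNAs and 4.66, 4.45, 4.54 and 4.80 times those of the SNHG1 snoRNAs, with overlap of the groups in each ratio.

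Replicates of 1 group differed in a way that many members shared. Vector 2 exceeded vector 1 for 78 of 111 members (SNORD14D is described separately), by a median of 0.12 and up to 0.94 on the log2(CPM + 1) scale, and CD95L 2 was below CD95L 1 for 103, by a median of -0.20. Across these members the 2 replicate differences went with each other in opposite sign (Pearson r = -0.57, Spearman's rho = -0.59, n = 111, a description, as the points share their libraries). For 4214 other genes averaging 10 CPM or more r was -0.01. It was -0.59 for the 18 GAS5 and SNHG1 snoRNAs and -0.36 for 65 H/ACA snoRNAs. Gene length and GC content had rho between -0.11 and 0.11 with either replicate difference.

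A gap in the vector replicate difference, from 0.66 to 0.78, set 14 members apart, and a limit of 0.75 was chosen after the values were seen. The 14 were SNORD2, SNORD12B, SNORD18C, SNORD23, SNORD24, SNORD36C, SNORD38A, SNORD50B, SNORD65, SNORD67, SNORD83B, SNORD88B, SNORD88C and SNORD124. In 13 of them CD95L 2 was below CD95L 1, a share near that over all members (103 of 111). SNORD23, at 49, 103, 64 and 85 reads, was the exception. Copies from 1 host fell on both sides. SNORD50B had 613, 1099, 1222 and 905 CPM, while SNORD50A, with nearly the same match, stayed between 20702 and 22949 CPM. SNORD83A held 462 and 481 CPM in the vector and 604 and 581 CPM in the CD95L libraries, where SNORD83B differed within each group. SNORD88A was at 313, 311, 317 and 280 CPM, level where SNORD88C was not. What separated these copies was not tested.

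**Figure D4:**
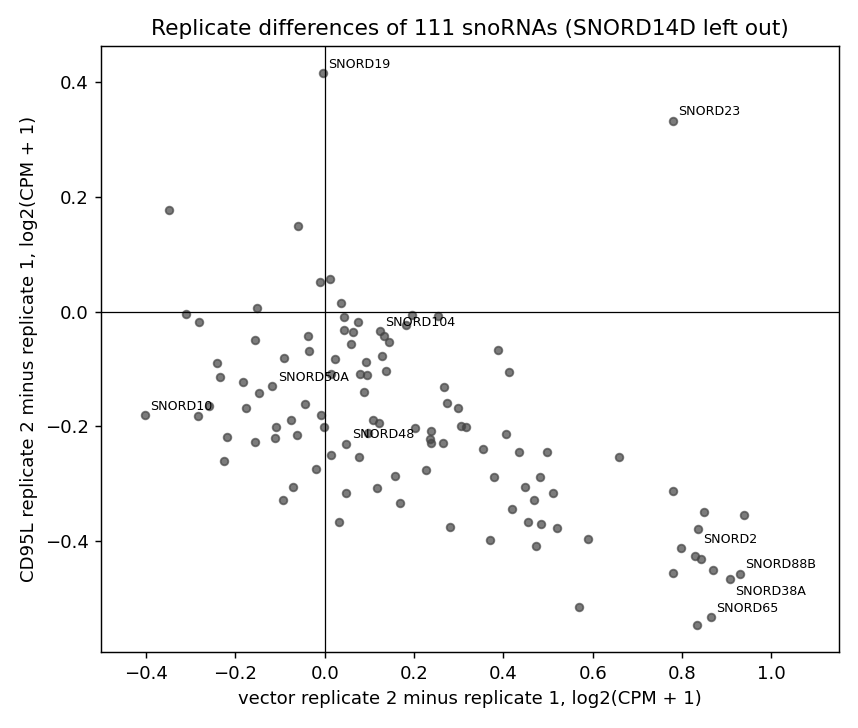
Difference of replicate 2 from replicate 1 on the log2(CPM + 1) scale in the vector group (horizontal) and the CD95L group (vertical), 1 point for each of 111 tested C/D box snoRNAs. The points fall from upper left to lower right (r = -0.57), with 14 members to the right of 0.75 and SNORD104 and SNORD50A near the origin.

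SNORD14D followed the replicate number and not the group. It lies on chromosome 11 in HSPA8, the gene of a constitutive heat shock protein, inside an exon of at least 1 annotated transcript. It had 338 CPM in vector 1 and 401 CPM in CD95L 1, but 5343 CPM in vector 2 and 5545 CPM in CD95L 2. Replicate 2 was thus 15.8-fold above replicate 1 in the vector group and 13.8-fold above it in the CD95L group. Between the groups the difference was 0.15 ± 1.17 (adjusted p = 0.995 in limma), the widest SE of any member. With the replicate number as a block the SE was 0.29. edgeR without vector 2 called SNORD14D higher in CD95L cells (log2 fold change 3.10, adjusted p = 0.000488), a fit in which 1 vector library of replicate 1 met CD95L libraries of both numbers, and without CD95L 2 the sign was opposite (-2.77, adjusted p = 0.162 in edgeR).

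The other SNORD14 copies, which hold the same match to 18S, did not follow it. SNORD14C, in the same host, had 832, 811, 1076 and 1045 CPM and SNORD14E 309, 414, 476 and 375 CPM. SNORD14A, in the ribosomal protein gene RPS13, had 24.3, 28.8, 37.9 and 32.3 CPM and SNORD14B 294, 246, 302 and 269 CPM. The sequence of SNORD14D was 79.1% identical to SNORD14C and 81.7% to SNORD14A. Of 4324 genes averaging 10 CPM or more, 4 had replicate differences beyond 1.5 on the log2(CPM + 1) scale in the same direction in both groups. Besides SNORD14D these were KIF21B (58.5, 3.85, 62.8 and 6.85 CPM), NCBP1 (69.0, 10.2, 61.7 and 11.7 CPM) and NDUFA13 (100, 11.4, 66.9 and 11.0 CPM), all higher in replicate 1 and so opposite to SNORD14D. These 3 genes were named after their values were seen.

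**Figure D5:**
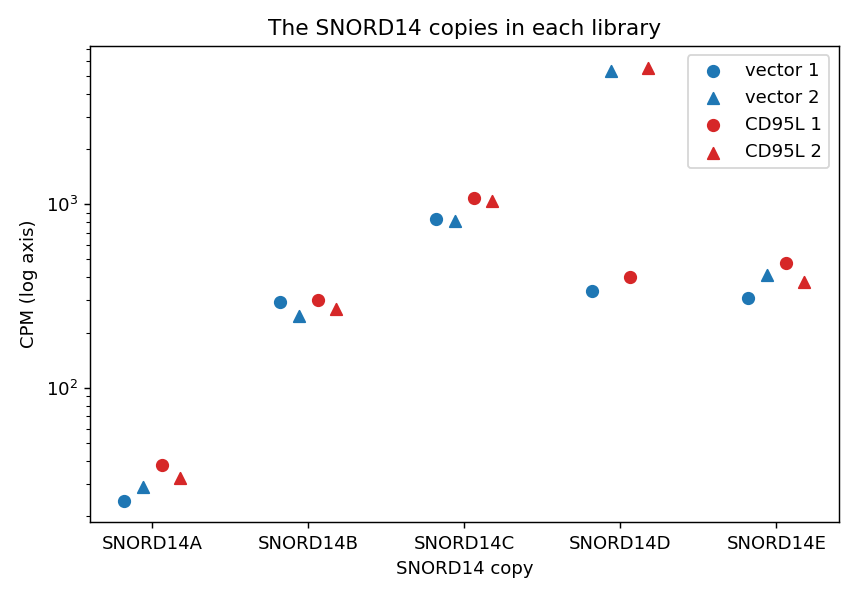
CPM (log axis) of the 5 SNORD14 copies in each library (blue vector, red CD95L, circle replicate 1, triangle replicate 2). SNORD14D is at 338 and 401 CPM in replicate 1 and at 5343 and 5545 CPM in replicate 2 of the 2 groups. For each other copy the libraries stay close together, while the copies differ in level.

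Fragments of the mRNAs for the 4 proteins of the C/D particle were at low level and 0 of the 4 were called. FBL had 14.7, 13.2, 13.7 and 12.1 CPM (-0.11 ± 0.25), NOP56 17.2, 14.8, 16.6 and 16.9 CPM (0.07 ± 0.24) and NOP58 9.51, 10.2, 7.34 and 9.03 CPM (-0.25 ± 0.25). SNU13 had 4.66 and 4.69 CPM in the vector and 5.94 and 6.31 CPM in the CD95L libraries, without overlap (0.33 ± 0.24). Of 10 assembly factors, 2 were positive, 8 negative and 0 called (median -0.10). Of the 4 H/ACA core proteins and the 7 debranching and decay factors, 3 and 4 were positive and 0 were called.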

How the data were processed

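Per the labels, total RNA was made into Illumina small RNA libraries and sequenced on an Illumina HiSeq instrument. The authors trimmed reads, aligned them with TopHat to hg38 (the submitters' processing notes also name Bowtie2), counted them per gene with HTSeq and deposited CPM (reads per 1000000 gene reads). Tool versions are not given in the sources used here, and no composition factor had been applied, each library summing to 1000000. The log2 fold change, log2 mean level, p-value and adjusted p-value that the authors deposited from their own edgeR comparison were not used. All CPM values were whole multiples of 1 read within 0.01 of a read (100% of values), and reads were recovered from them (24915394 and 25163566 for the vector, 22897068 and 22488145 for the CD95L libraries). limma 3.58.1 (R 4.3.3) on log2(CPM + 1), over the 16127 genes averaging 1 CPM or more and with group as the only term, was the main test (two-sided, Benjamini-Hochberg over all genes, threshold 0.05). Differences are on this scale, which understates changes of low genes. edgeR 4.0.16 and DESeq2 1.42.0 ran on the recovered reads. Other pseudocounts, filters, scalings, a mean-variance trend, a replicate block and leaving out libraries were tried, and the scripts were tested on simulated data. Summed shares were compared with exact permutation tests (scipy 1.17.1). Members were placed with GENCODE 44 on hg38.

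Named were the 12 members with the highest mean CPM, the 10 with the smallest unadjusted p in each direction, any called, the highest and lowest of each host or copy group, tested imprinted members and the 4 C/D core proteins. Beside the 13 hosts described, 1 further host gene with at least 3 tested members is not reported here. The rule for members used only names, but the set and the gene lists were chosen with earlier results of these data known.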

Additional observations from a re-analysis of the deposited data

How the results depend on the processing

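The count of members called was 0 with other pseudocounts, filters and scalings, a mean-variance trend, edgeR, DESeq2 and the replicate block, and in limma without each library. edgeR without vector replicate 2, tried after seeing the data, called 1 (SNORD14D). When 1 library was left out, the number of positive members ranged from 90 to 107 and the median difference from 0.12 to 0.31 in limma, and from 67 to 110 and from 0.035 to 0.394 in edgeR, the lowest without CD95L replicate 1. Members higher at an unadjusted p under 0.05 numbered 0 with a pseudocount of 0.1, 16 with a pseudocount of 5 (beside 2.37% of all genes), 14 in limma without vector replicate 2 (beside 2.22%) and 58 in edgeR without CD95L replicate 2 (beside 2.97%), where 2 were lower (beside 3.95%). The difference in the members' share of reads ranged from 1.35 to 4.86 percentage points and that in their share of C/D box reads from -0.349 to 1.25 without 1 library.

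The sign turned for several members. Values without 1 library are from limma here unless edgeR is named. With the total taken without RNY4 the difference became -0.034 for SNORD50A, -0.033 for SNORD93, -0.055 for SNORD100 and -0.019 for SNORD57, and with DESeq2 size factors -0.0050 for SNORD100. When 1 library was left out, the difference ranged from -0.040 to 0.090 for SNORD50A, from -0.139 to 0.092 for SNORD48, from -0.062 to 0.114 for SNORD93, from -0.091 to 0.0995 for SNORD100 and from -0.040 to 0.122 for SNORD57. Without vector replicate 1 it was -0.021 for SNORD2 and -0.041 for SNORD88C, and without vector replicate 2 it was 0.813 and 0.737. For the members with a negative difference the ranges were -0.158 to 0.023 for SNORD88A, -0.202 to 0.076 for SNORD36B, -0.169 to 0.047 for SNORD52, -0.209 to 0.121 for SNORD70, -0.135 to 0.084 for SNORD17 and -0.135 to 0.086 for SNORD98. In limma SNORD14D ranged from -1.84 to 2.14 and the NOP56 mRNA from -0.036 to 0.171. With all libraries SNORD14D was at -0.050 in edgeR and -0.066 in DESeq2. In edgeR it was at -2.77 without CD95L replicate 2 and at 3.10 without vector replicate 2. The others of the most abundant members, of those with the smallest p in each direction and of the core protein mRNAs kept their sign in the limma settings. They also kept it in edgeR and DESeq2 with all libraries. Of 48 further members that are the highest or lowest of a host or copy group, 13 turned sign in at least 1 of these settings. Among the 13 were SNORD105, at -0.0034 in limma and 0.025 in edgeR, and SNORD50B, at 0.356 and, without vector replicate 1, -0.064. Signs of these members were not compared in edgeR without 1 library. There only 67 of 113 members were positive without CD95L replicate 1 and 86 of 113 without vector replicate 1, so more signs may turn. The causes were not tested.

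The correlation of the deviations of same-numbered libraries from their group means was -0.0020 over all genes tested and 0.514 over the 112 tested members, SNORD14D included. For the 111 members without SNORD14D the same correlation, given above for replicate differences, was -0.57, so the positive sign rested on SNORD14D. With 2 pairs the numbers cannot be shown to pair the libraries. The replicate block called 80 genes and 0 members, with a median of 0.25. Depth limits SNORD112, SNORD123, SNORD56B and SNORD96B, with 6 to 30 reads in all. With 2 libraries per group, the exact permutation tests of shares could not go below 0.333.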
